A study of Rattus norvegicus and Bos taurus with 6 samples.

Results

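The expression of 8 genes of insulin signalling and glucose uptake was measured in single nuclei of fat: the receptor Insr, the adaptors Irs1 and Irs2, the PI3-kinase regulatory subunit Pik3r1, the kinase Akt2, the Akt substrates Tbc1d4 and Foxo1, and the transporter Slc2a4. They were chosen by name for their place in the pathway, with earlier results of these data known, and matched by gene symbol in any case. All 8 were found in each of the 6 libraries, among 25629 genes listed for the 10x library, 38697 for each rat Parse library and 36075 for the cow library. The study isolated nuclei from snap-frozen fat and counted RNA molecules by unique molecular identifiers (UMIs), and it asked how well nuclei of white fat can be sequenced. Of the 5 rat libraries, 1 came from perivascular fat of the mesentery (mesPVAT) on the 10x 3' kit, and 4 were made with the Parse Evercode kit from mesPVAT, retroperitoneal (RP) fat, thoracic aortic perivascular fat (taPVAT) and subscapular brown fat (subscapular BAT). The remaining library was subcutaneous flank fat of Holstein dairy cattle on the Parse kit.

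All rat tissue came from male Dahl salt-sensitive rats (SS/HsdMcwiCrl) on a normal diet, and the labels name no treatment or age. The cow tissue was female. The study describes its cows as lactating and healthy and does not say how many gave the library. The titles name taPVAT and subscapular BAT as brown and the other depots as white. Each depot and kit had 1 library, and the labels do not say whether the depots came from separate rats or whether animals were pooled. Comparisons of brown with white fat therefore set 2 depots against 2 others, and their p-values measure the spread between depots, not between animals. By the study's methods taPVAT was also spun more slowly than white rat fat during isolation, and no speed is given for subscapular BAT. Fat type and this step of the isolation cannot be told apart.

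Insulin binds its receptor at the cell surface, and the activated receptor phosphorylates the IRS adaptors, which recruit PI3-kinase through its regulatory subunit. The lipid made by PI3-kinase activates Akt, which phosphorylates TBC1D4 (also called AS160) and so releases vesicles that carry the glucose transporter GLUT4, the product of Slc2a4, to the surface. Akt also phosphorylates the transcription factor FOXO1 and drives it out of the nucleus. Adipocytes, both white and brown, are known as a main site of insulin-stimulated glucose uptake. UMI counts of nuclei show RNA and neither protein nor phosphorylation.

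The files held 19424 nuclei, and no barcode was shared between libraries. Median UMIs per nucleus ran from 161 in mesPVAT on 10x, 213 in RP fat and 346 in mesPVAT on Parse to 1246 in taPVAT, 1706 in subscapular BAT and 3530 in cow fat, and total UMIs from 845316 in RP fat to 16827260 in cow fat. For the white rat Parse libraries the order in median genes per nucleus is the reverse of that which the study gives for these depots, so the labels of both may be exchanged in one of the sources. Both are named here by their labels. Each value given for 1 of them alone, or that sets it against another library, carries that doubt. Ucp1, the uncoupling protein that defines brown fat, stood at 1782 and 2072 counts per 1000000 UMIs (CPM) in taPVAT and subscapular BAT, at 63.4 in mesPVAT and 89.9 in RP fat on Parse, and at 0.808 (1 UMI) in mesPVAT on 10x. The adipocyte markers Plin1 and Adipoq summed to 1361 CPM in mesPVAT on Parse and 517 in RP fat against 2578 and 2671 in the brown libraries, and the 5 striated muscle markers to 279 and 394 against 192 and 63.9. The sums of the other lists were 811 and 539 against 728 and 894 for endothelial, 506 and 480.3 against 438 and 130.4 for progenitor, 246 and 204 against 285 and 101 for immune, and 819 and 635 against 496 and 808 for pericyte and smooth muscle markers. Genes without a symbol of their own took 22.5% and 28.1% of the UMIs in the white Parse libraries and 17.7% in each brown one. The part of these differences in the results below was not tested.

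In rat, on build GRCr8, Insr lies on chromosome 12 (5991135 to 6129275), Irs1 on chromosome 9 (91001137 to 91053959), Irs2 on chromosome 16 (85190310 to 85214543) and Pik3r1 on chromosome 2 (34612946 to 34697660). Akt2 lies on chromosome 1 (92004705 to 92061420), Tbc1d4 on chromosome 15 (84670756 to 84848876), Foxo1 on chromosome 2 (138462974 to 138541420) and Slc2a4 on chromosome 10 (55164721 to 55170289). Nuclear RNA is rich in introns, so overlapping genes matter: Insr spans 2 lncRNA genes and Akt2 overlaps C1h19orf47 and a pseudogene in RefSeq, and reads of these loci may be shared.

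FOXO1 is known to act on insulin receptor transcription through forkhead motifs, so the promoters of the genes were searched for the core letters TTGTTTAC on both strands in the 250 bases before the start that the RefSeq promoter table gives. Of the 6 genes in the RefSeq promoter table (all but Irs2 and Slc2a4), only Insr held it, as did 0.947% of 33469 rat promoters. The 30 bases around the match are printed because Insr was the gene that held it, and a match of letters says nothing of binding. They lie on the minus strand at chr12:6128886-6128915 of GRCr8, and the capitals mark the motif. It begins 101 bases before the start in that table (6128803) and 371 bases inside the gene span given above, which begins further upstream.
Insr: gacgggccgcgTTGTTTACtggccggagtc
The E-box CACGTG was in none of the 6 promoters (5.59% of all promoters), the CCAAT box in those of Pik3r1 and Tbc1d4 (34% of all), the GC box GGGCGG in those of Irs1, Pik3r1 and Tbc1d4 (30.5%) and TATAAA in that of Akt2 (12.9%). No motif was shared by all 6 promoters.

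All 8 genes had a higher level in both brown libraries than in both white rat Parse libraries. The same separation held for 20.7% of the 24063 genes with at least 20 UMIs over these 4 libraries. Levels are UMIs of a gene summed over all nuclei of a library, as CPM, and brackets give 95% exact Poisson intervals, which cover counting error only. In these sums, fewer adipocytes and less RNA of a gene in each adipocyte cannot be told apart.

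Insr, the receptor, stood at 307 CPM in taPVAT (292 to 323) and 290.3 in subscapular BAT (277 to 304), against 132 in mesPVAT on Parse (115 to 151) and 142 in RP fat (118 to 169.7). The brown libraries did not differ from each other beyond counting error (ratio 1.06, 0.989 to 1.13), nor did the white ones (1.07, 0.852 to 1.35), and the gap lay between the fat types. On 10x mesPVAT gave 304 CPM (274 to 336), a level within the range of the brown Parse libraries, and cow fat gave 158 (152 to 164).

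Irs1, an adaptor of the receptor, was measured at 458 CPM in taPVAT, 434 in subscapular BAT, 74.2 in mesPVAT on Parse, 55.6 in RP fat, 196 in mesPVAT on 10x and 46.6 in cow fat. Irs2, its relative, was at 378, 529, 88.7, 58.0, 207 and 42.4 CPM in the same order. The adaptors kept the brown and white Parse libraries apart by a wider margin than the receptor, with subscapular BAT 5.84 times mesPVAT for Irs1 (4.88 to 7.06) and taPVAT 4.26 times mesPVAT for Irs2 (3.60 to 5.08). Irs2 also differed within the brown pair, being 1.40 times higher in subscapular BAT than in taPVAT (1.32 to 1.48), whereas Irs1 did not (1.06, 0.998 to 1.12).

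Pik3r1, which brings PI3-kinase to the adaptors, was at 178 CPM in taPVAT, 157 in subscapular BAT, 49.5 in mesPVAT on Parse, 31.9 in RP fat, 98.5 in cow fat and 965 in mesPVAT on 10x. Akt2, the Akt isoform that carries the insulin signal in fat, was at 392, 470.4, 89.3 and 60.3 CPM in the 4 rat Parse libraries in that order, at 77.8 in cow fat and at 291 in mesPVAT on 10x. For Akt2 the libraries of each pair also differed beyond counting error, with subscapular BAT 1.20 times taPVAT (1.13 to 1.27) and mesPVAT 1.48 times RP fat (1.07 to 2.08). With 1 library a depot, depot and library cannot be told apart. The 10x level of Pik3r1 stood above every other library.

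Tbc1d4, the GTPase-activating protein that holds GLUT4 vesicles back, was at 439.8 CPM in taPVAT, 431 in subscapular BAT, 172 in mesPVAT on Parse, 170.4 in RP fat, 396 in cow fat and 666 in mesPVAT on 10x. Foxo1 was at 242 and 240.3 CPM in the brown libraries, 77.3 in mesPVAT on Parse, 89.9 in RP fat, 296 in cow fat and 233 in mesPVAT on 10x. For these Akt substrates neither the brown pair nor the white Parse pair differed beyond counting error, and every interval of those ratios included 1. Foxo1 was the gene for which the cow library stood above both brown rat libraries. The Parse nuclei were processed in sublibraries, and in cow fat Foxo1 was at 250.4 CPM in sublibrary 1 and 337.0 in sublibrary 2. Both values lie outside the Poisson interval of the whole cow library (288 to 305).

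Slc2a4, the insulin-responsive transporter, was the sparsest of the 8. It gave 239 UMIs in taPVAT (46.9 CPM, 41.1 to 53.2), 247 in subscapular BAT (39.1, 34.4 to 44.3), 6 in mesPVAT on Parse (3.62, 1.33 to 7.88), 4 in RP fat (4.73, 1.29 to 12.1), 31 in mesPVAT on 10x (25.0, 17.0 to 35.6) and 111 in cow fat (6.60, 5.43 to 7.94). The brown libraries overlapped (ratio 1.20, 0.999 to 1.44), and subscapular BAT was 8.26 times RP fat with a wide interval (3.19 to 30.6), since only 4 UMIs stand behind the white level.

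**Figure D1:**
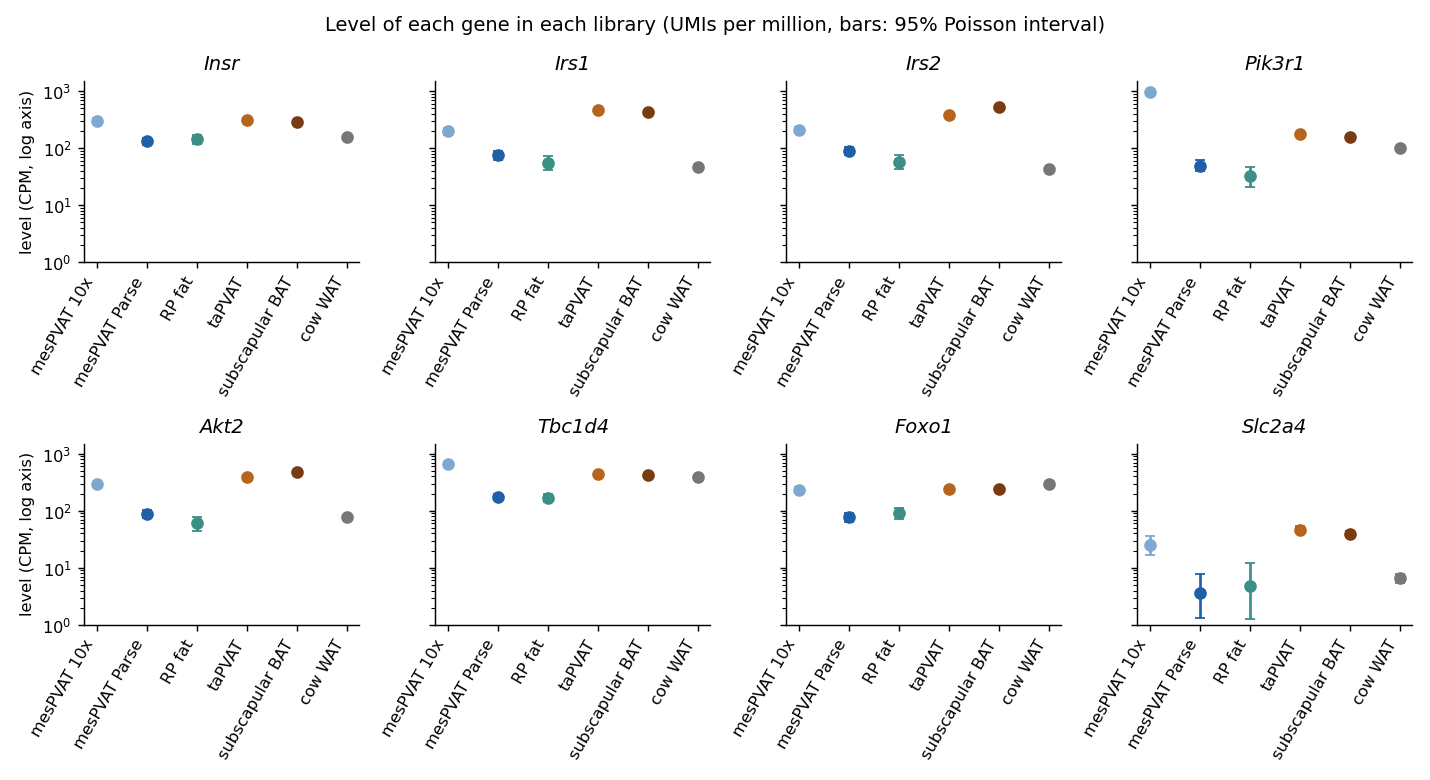
Level of each of the 8 genes (CPM, log axis) in the 6 libraries, with points for the level and bars for the 95% Poisson interval. In every panel both brown libraries (taPVAT and subscapular BAT) lie above mesPVAT on Parse and RP fat, while mesPVAT on 10x reaches the brown range for Insr and passes it for Pik3r1 and Tbc1d4.

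On 10x mesPVAT exceeded mesPVAT on Parse for all 8 genes, by 2.30 times for Insr (1.94 to 2.73), 2.65 for Irs1, 2.33 for Irs2, 3.26 for Akt2, 3.87 for Tbc1d4, 3.01 for Foxo1, 6.92 for Slc2a4 (2.84 to 20.3) and 19.5 for Pik3r1 (15.6 to 24.7). A level at least 2 times higher on 10x was found for 22.5% of the 12067 genes with at least 20 UMIs over both mesPVAT libraries. The 10x level lay above both white Parse libraries for 8 of the 8 genes and above the lower of the brown Parse libraries for Insr, Pik3r1 and Tbc1d4. The shares of all genes with such levels were not computed, so these counts do not set the 8 genes apart. By the study's methods the nuclei for 10x were isolated with another protocol and sorted for a DNA stain. Isolation, sorting, kit, batch and gene annotation thus differ between the mesPVAT libraries and cannot be told apart. If the labels of the white Parse libraries are exchanged, the ratios also set mesPVAT against RP fat. Brown and white fat were compared within the Parse kit only.

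A UMI of Akt2 was found in 46.5% of the nuclei of subscapular BAT (44.6 to 48.4, 95% exact binomial interval), 36.2% of taPVAT, 4.33% of mesPVAT on Parse and 1.78% of RP fat. For Slc2a4 the shares were 8.26% in subscapular BAT, 7.31% in taPVAT, 0.198% in mesPVAT on Parse and 0.143% in RP fat. Such shares rise with depth, so each nucleus was thinned to 500 UMIs and shallower nuclei were left out, which kept 976 nuclei of mesPVAT and 380 of RP fat on Parse and 262 of mesPVAT on 10x. After thinning, Akt2 was found in 16.5% of the nuclei of subscapular BAT, 14.9% of taPVAT, 4.51% of mesPVAT, 3.42% of RP fat, 2.39% of cow fat and 13.7% of mesPVAT on 10x. The distance between brown and white Parse libraries thus shrank but stayed, and for 8 of the 8 genes the share was higher in both brown libraries than in both white ones, at 500 UMIs and at 200 UMIs alike. This separation held for 19.1% of 24063 genes at 500 UMIs and for 18.3% at 200 UMIs.

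**Figure D2:**
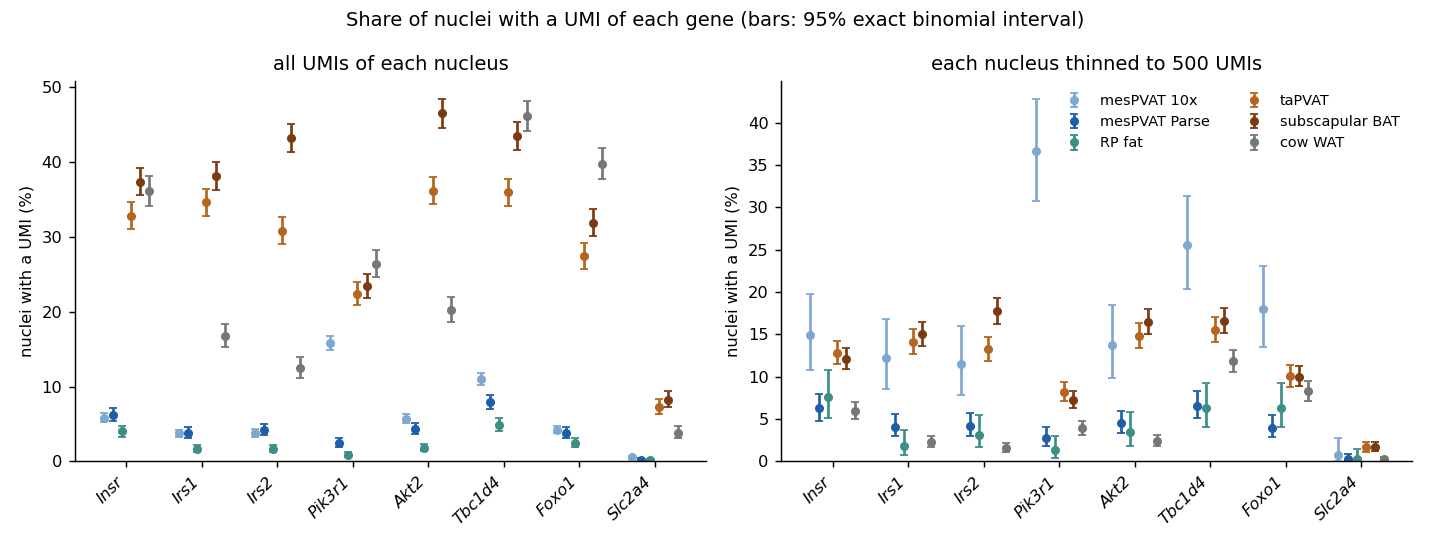
Share of nuclei with a UMI of each gene (%) in the 6 libraries, from all UMIs (left) and after thinning each nucleus to 500 UMIs (right), with 95% exact binomial intervals. At equal depth the brown libraries still lie above the white rat Parse libraries, with Akt2 at 16.5% and 14.9% against 4.51% and 3.42%, and mesPVAT on 10x moves up to or past the brown libraries for Insr, Pik3r1, Tbc1d4 and Foxo1.

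Nuclei with a UMI of Plin1, the perilipin that coats the lipid droplet, or of Adipoq, the adipokine adiponectin, were then compared with nuclei that had neither, to ask whether the genes follow the adipocyte. In cow fat Plin1 alone was used. Positive nuclei made up 71.1% of subscapular BAT, 62.3% of taPVAT, 24.0% of mesPVAT on 10x, 23.2% of mesPVAT on Parse, 17.5% of cow fat and 10.5% of RP fat. They were also deeper, with a median of 1858 against 709 UMIs in taPVAT and 301 against 206 in RP fat. An adipocyte nucleus with few UMIs can thus fall among the negative ones. For mesPVAT and RP fat on Parse the study saw no clear inflection in plots of UMIs by ranked barcode. It read this as difficulty in telling nuclei from background RNA. A marker UMI there may be ambient, and the part of ambient RNA was not tested.

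In both brown libraries each of the 8 genes was higher in positive than in negative nuclei, with every interval of the ratio above 1. Of the genes with at least 20 UMIs in the library, 16.1% had such an interval in subscapular BAT and 13.7% in taPVAT. Irs2 was at 603 CPM in positive and 101 in negative nuclei of subscapular BAT (ratio 5.99, 4.88 to 7.44) and at 443 against 94.1 in taPVAT (4.70, 3.80 to 5.89). Irs1 was at 494 against 86.7 CPM in subscapular BAT (5.70) and 533 against 126 in taPVAT (4.24). These adaptors had the widest gap between marker-positive and marker-negative nuclei in subscapular BAT.

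Akt2 followed with 533 against 107 CPM in subscapular BAT (4.98, 4.08 to 6.15) and 458 against 105 in taPVAT (4.37, 3.57 to 5.40). Tbc1d4 was 3.93 and 2.88 times higher in positive nuclei of subscapular BAT and taPVAT, Insr 2.95 and 2.18 times, and Pik3r1 2.80 and 2.90 times. Slc2a4 was at 43.3 against 15.0 CPM in subscapular BAT (2.89, 1.69 to 5.37) and 55.4 against 9.52 in taPVAT (5.82, 3.01 to 12.9). Foxo1 had the narrowest gap, at 246 against 209 CPM in subscapular BAT (1.18, 1.01 to 1.38) and 255 against 187 in taPVAT (1.36, 1.16 to 1.60).

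In the white rat libraries fewer intervals lay above 1. In mesPVAT on Parse the interval lay above 1 for 4 of the 8 genes, namely Irs2 (3.43, 2.40 to 4.97), Akt2 (2.97, 2.10 to 4.26), Insr (1.47, 1.11 to 1.93) and Tbc1d4 (1.31, 1.03 to 1.66), against 5.73% of all genes with at least 20 UMIs. In RP fat it did so for 0 of 8, against 3.93% of such genes, where positive nuclei held only 119334 UMIs and gave 22 UMIs of Insr, 12 of Akt2 and 11 each of Irs1 and Irs2. Slc2a4 had 0 UMIs in the 295 positive nuclei of RP fat, which allows a share of up to 1.02% of nuclei and a level of up to 25.1 CPM, so a difference was not detectable at this depth. Foxo1 was below 1 in both, at 0.736 (0.495 to 1.08) in mesPVAT and 0.922 (0.423 to 1.80) in RP fat, and both intervals included 1. In mesPVAT on 10x, 5 of the 8 intervals lay above 1 (9.06% of such genes), and ratios ran from 0.958 for Foxo1 to 2.14 for Slc2a4 (0.988 to 4.63).

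In cow fat 7 of the 8 intervals lay above 1, against 17.9% of the genes with at least 20 UMIs, with IRS2 at 76.4 CPM in positive and 19.3 in negative nuclei (3.96, 3.36 to 4.70), AKT2 at 139 against 36.3 (3.82, 3.38 to 4.32) and FOXO1 at 465 against 182 (2.55, 2.41 to 2.70). The ratio of FOXO1 was the highest of the 6 libraries, and its interval did not overlap that of any rat library. SLC2A4 was the exception, at 6.61 CPM in positive and 6.59 in negative nuclei (1.00, 0.671 to 1.49). Median depth was 8295 UMIs in positive and 3122 in negative cow nuclei. Of the 401 positive cow nuclei only 25 had no UMI of another marker list, so most carried mixed markers. The study annotated a smaller share of cow nuclei as adipocytes. Within those 25, the 74 UMIs of FOXO1 came from 6 nuclei, a clumping that the intervals do not cover. With 1 cow library, from lactating females and another depot, species and these factors cannot be told apart.

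**Figure D3:**
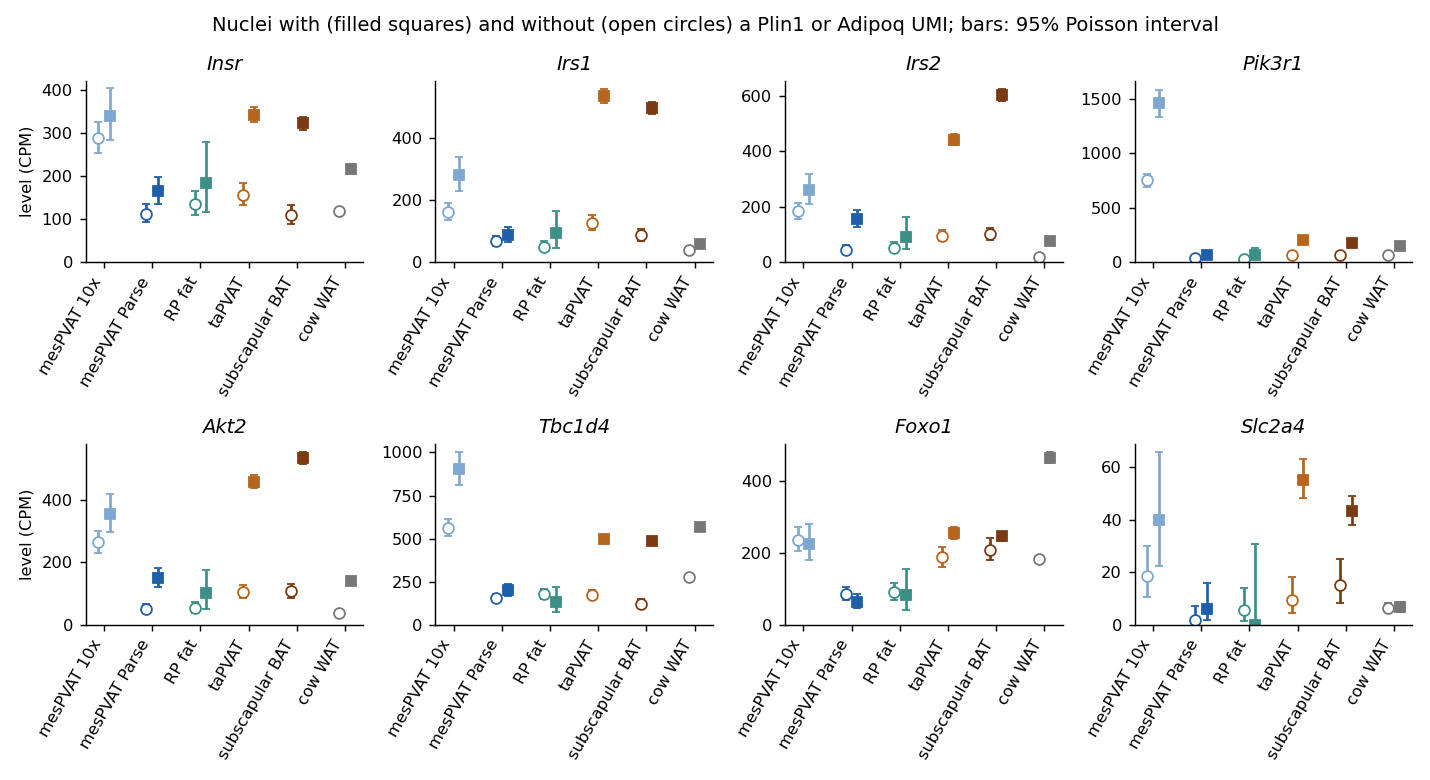
Level of each gene (CPM) in nuclei with a Plin1 or Adipoq UMI (filled squares) and without (open circles) in the 6 libraries, with 95% Poisson intervals. The symbols are far apart in taPVAT and subscapular BAT, as for Irs2 with 603 against 101 CPM, and close together for Foxo1 in every rat library.

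Across the 4 rat Parse libraries, with the library as a block, 6 of the 8 genes rose in positive nuclei by edgeR's quasi-likelihood test with Benjamini-Hochberg adjustment over 17860 genes. Of all genes tested 8.38% were called higher and 4.55% lower. The log2 fold changes were 2.34 for Irs2 (SE 0.34, adjusted p = 0.00363), 2.20 for Akt2 (SE 0.32, adjusted p = 0.00363), 2.29 for Slc2a4 (SE 0.40, adjusted p = 0.00712), 1.67 for Pik3r1 (SE 0.27, adjusted p = 0.00552), 1.95 for Irs1 (SE 0.40, adjusted p = 0.0127) and 1.32 for Insr (SE 0.29, adjusted p = 0.0156). Tbc1d4 missed the threshold at 1.33 (SE 0.41, adjusted p = 0.0515), and Foxo1 was at 0.46 (SE 0.27, adjusted p = 0.29). Positive nuclei were higher in 4 of 4 libraries for Insr, Irs1, Irs2, Pik3r1 and Akt2, in 3 of 4 for Slc2a4 and Tbc1d4, and in 2 of 4 for Foxo1. Of 24061 genes with at least 20 UMIs, 6.18% were higher in 4 of 4 libraries.

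These calls rested on both brown libraries together. Without subscapular BAT or without taPVAT, 0 of the genes passed the edgeR test. Calls over all genes fell from 2310 to 79 and 71. In these edgeR fits 5 and 6 of the genes had an unadjusted p under 0.05. Of all genes tested, 2638 of 16626 and 2447 of 16493 did. Slc2a4 was below the filter on low counts without subscapular BAT, which left 7 of the genes tested. The fold changes themselves moved less, with Irs2 at 1.92 (edgeR adjusted p = 0.0568) and Akt2 at 1.82 (0.0604) without subscapular BAT, and 2.13 and 1.97 (0.0594 for each) without taPVAT. DESeq2 called 7 of the 8 with all libraries in (1154 of 17860 genes higher, 5194 without an adjusted p). Without mesPVAT 6 of the 8 were called (1470 of 15854 genes higher) and without RP fat 7 (1142 of 15240). When a positive nucleus had to hold a UMI of each marker only 1 was called (285 of 21065 genes higher). That rule put nuclei with a UMI of 1 marker alone among the negative ones. Adipoq gave only 33 UMIs in RP fat and 121 in mesPVAT on Parse. After thinning every nucleus to 200 UMIs 4 of the 8 were called (272 of 7182 genes higher). The median log2 fold change of the 8 was 1.809 in the main fit, 0.427 with both markers required and 0.707 after thinning. With no scaling factors beyond the total 6 were called, against 3.48% of all genes called higher, while the split of all calls moved from 1497 higher and 813 lower to 622 higher and 1867 lower, and the median log2 fold change of all genes fell by 0.373 on the log2 scale.

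Brown and white rat Parse libraries were compared over all nuclei and again over positive nuclei alone, since the share of positive nuclei differed between them. That share was not compared at equal depth. Over all nuclei 8 of the 8 genes rose in brown fat, in a fit where 34.1% of 24065 genes were called higher and 41.8% lower. Means of the 2 libraries a side were 446 CPM in brown and 64.9 in white fat for Irs1, 454 and 73.3 for Irs2, 431 and 74.8 for Akt2, and 43.0 and 4.18 for Slc2a4. The other 4 genes had means of 299 and 137 CPM for Insr, 167 and 40.7 for Pik3r1, 435 and 171 for Tbc1d4, and 241 and 83.6 for Foxo1.

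The size of these differences depended on the scaling. With TMM factors the log2 fold changes ran from 2.35 for Insr (SE 0.48, adjusted p = 1.74e-04) to 4.59 for Slc2a4 (SE 0.42, adjusted p = 1.74e-07), and the median over all genes was -0.42. With the total alone they ran from 1.10 for Insr to 3.38 for Slc2a4 and the median was -1.65, a shift of the whole scale that left 8 of the 8 genes called, with 10.8% of all genes called higher and the calls moving from 8202 higher and 10049 lower to 2607 and 13698. Under DESeq2 8 of the 8 remained called as well (7857 of 24065 genes higher, 2333 without an adjusted p). Leaving out each library in turn left 1 library on a side. The TMM log2 fold changes then ran from 2.10 to 2.39 for Insr and from 4.39 to 4.57 for Slc2a4.

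Over positive nuclei alone 8 of the 8 genes were again higher in brown fat, with 29.6% of 18467 genes called higher and 32.9% lower. Irs1 was at 513.5 CPM in brown and 89.4 in white positive nuclei (mean of 2 libraries each, log2 fold change 3.41, SE 0.44, adjusted p = 8.06e-06), and Foxo1 at 250.2 and 73.6 (2.72, SE 0.37, adjusted p = 1.34e-05). Insr had the smallest difference, at 332 and 174 CPM (1.84, SE 0.37, adjusted p = 4.35e-04). Slc2a4 was at 49.3 and 3.09 CPM, and its fitted value of 4.04 (SE 0.52) rests on 4 UMIs in the positive nuclei of the white libraries, all from mesPVAT. Without mesPVAT the white side had 0 UMIs of Slc2a4, and no fold is given. With the total alone the 8 values ran from 0.91 to 3.19 and all 8 were called, with 11% of all genes called higher and the calls moving from 5459 higher and 6075 lower to 2039 and 8212. When nuclei were thinned to 200 UMIs before they were classed, 3 of the genes were called and Insr was at 0.01, with 703 of all genes called in place of 11534. That fit held 2595 genes and 7 of the 8 (not Slc2a4). The median log2 fold change was 1.352 over those 7, against 2.745 over the 8 in the main fit. The cause of the lost calls was not tested. Median depth of positive nuclei was 1858 and 2188 UMIs in the brown libraries and 599.5 and 301 in the white ones. Positive nuclei of the white libraries may owe their marker UMI to ambient RNA more often, which was not tested. The fit over positive nuclei therefore need not compare adipocytes alone.

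The ratio of positive to negative nuclei was itself compared between brown and white fat. It was larger in brown fat for 6 of the 8 genes (edgeR, 5.61% of all genes higher and 3.16% lower). The differences of the log2 ratio were 2.14 for Irs1 (SE 0.34, adjusted p = 1.71e-05), 1.99 for Tbc1d4 (SE 0.30, adjusted p = 8.84e-06), 1.31 for Irs2 (SE 0.34, adjusted p = 0.00996), 1.24 for Akt2 (SE 0.33, adjusted p = 0.0115), 1.21 for Insr (SE 0.29, adjusted p = 0.0045) and 1.07 for Foxo1 (SE 0.32, adjusted p = 0.03). Pik3r1 (1.06, SE 0.37, adjusted p = 0.0656) and Slc2a4 (1.65, SE 1.07, adjusted p = 0.421) did not pass. Without RP fat the calls of Irs2 (adjusted p = 0.0871) and Akt2 (0.0716) were lost in edgeR's test and Pik3r1 gained one (0.0386), and the call of Foxo1 was lost without mesPVAT (0.217) and without taPVAT (0.0939). With the total alone only Irs1 (1.77) and Tbc1d4 (1.60) passed edgeR's test, against 3.4% of all genes called higher, and calls over all genes went from 1002 higher and 565 lower to 608 and 1358.

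**Figure D4:**
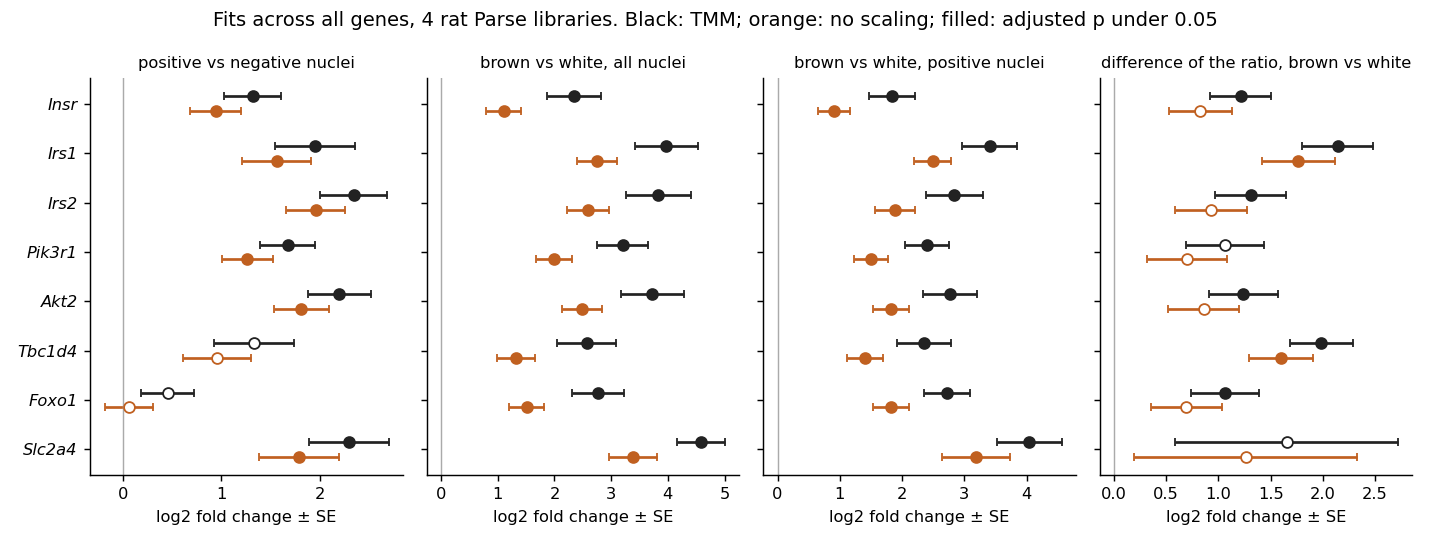
Log2 fold changes (points, with SE bars) of the 8 genes from fits across all genes in the 4 rat Parse libraries, with TMM factors (black) or the total alone (orange), filled where the adjusted p is under 0.05. All points of both brown against white panels are filled and above 0, while without scaling factors the difference of the ratio is filled for Irs1 and Tbc1d4 only.

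The negative nuclei hold several cell types, so nuclei with a UMI of exactly 1 of 6 marker lists were set apart, and those with an adipocyte marker were compared with those carrying endothelial, progenitor or immune markers. These sums were small in places, with 34 immune-marker and 36 progenitor-marker nuclei in subscapular BAT. Of the 8 genes 7 passed the filter on low counts in this fit (all but Slc2a4), among 2662 genes tested. Against endothelial-marker nuclei, 6 of the 7 were higher (17.8% of all genes were called higher and 15.1% lower), with Irs2 at 720 against 43.3 CPM in subscapular BAT and 550.2 against 12.4 in taPVAT (log2 fold change 4.42, SE 0.57, adjusted p = 7.10e-05). Foxo1 was not among them. It stood at 255 CPM in adipocyte-marker and 273 in endothelial-marker nuclei of subscapular BAT, and at 272 against 248 in taPVAT (0.18, SE 0.47, adjusted p = 0.809). In the white libraries the endothelial-marker nuclei had the higher value, 112 against 58.8 CPM in mesPVAT on Parse and 119 against 83.9 in RP fat, from 13 UMIs or fewer a class and with overlapping intervals. On 10x, which was not in the fit, it was 609 (419 to 855) against 206 CPM (157 to 265).

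Against immune-marker nuclei 3 of the 7 were higher, Irs1, Irs2 and Akt2 (15.3% of all genes were called higher and 9.73% lower). Tbc1d4 was at 547 against 402 CPM in subscapular BAT and 572 against 368 in taPVAT (0.73, SE 0.44, adjusted p = 0.233). Tbc1d4 RNA was thus found in immune-marker nuclei, with 26 UMIs in taPVAT and 11 in subscapular BAT. Irs1 had 0 UMIs in the immune-marker nuclei of both brown libraries, which in the 104 of taPVAT allows a share of up to 2.88%. In the white libraries Irs1 was not higher with adipocyte markers. It was at 81.45 against 85.3 CPM in mesPVAT on Parse and 42.0 against 87.2 in RP fat, with overlapping intervals. The immune-marker nuclei gave 4 and 2 UMIs of Irs1 there. Against progenitor-marker nuclei 5 of the 7 were higher, Insr, Irs2, Pik3r1, Akt2 and Tbc1d4 (12.1% of all genes were called higher and 9.13% lower). Irs1 was at 613.5 against 282 CPM in subscapular BAT and 635 against 406 in taPVAT there (1.13, SE 0.77, adjusted p = 0.303). Counts of called genes in these 3 comparisons moved when a library was left out. Without subscapular BAT they were 3, 2 and 3 of 6 tested, for endothelial, immune and progenitor markers in turn. Of all 2784 genes tested, 173, 167 and 138 were called higher there. Without taPVAT they were 4, 2 and 3 of 7, with 158, 89 and 80 of 1901 genes called higher. Without mesPVAT or without RP fat 5 of 7 passed against immune markers (522 of 2890 and 669 of 4173 genes higher). Without scaling factors the splits of all calls went from 475 higher and 403 lower to 268 and 559 (endothelial), from 406 and 259 to 179 and 645 (immune) and from 321 and 243 to 158 and 438 (progenitor).

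Slc2a4 did not pass the filter of this fit, so its levels and shares are given without a test. In taPVAT it was at 58.1 CPM in adipocyte-marker nuclei (45.6 to 73.1), 6.21 in endothelial-marker (0.157 to 34.6) and 41.1 in pericyte and smooth muscle marker nuclei (4.97 to 148), and immune-marker nuclei had 0 UMIs, which allows up to 42.5 CPM. In subscapular BAT it was at 48.1 CPM in adipocyte-marker nuclei (39.2 to 58.5), 91.1 in pericyte and smooth muscle marker (33.5 to 198) and 36.6 in immune-marker nuclei (0.926 to 204), and endothelial-marker nuclei had 0 UMIs, which allows up to 9.99 CPM. The level with adipocyte markers thus lay apart from that with endothelial markers, but not from that with pericyte and smooth muscle markers. By shares, in taPVAT 8.73% of 676 adipocyte-marker nuclei had a UMI (6.71 to 11.1) against 1 of 211 endothelial-marker nuclei (0.474%, 0.012 to 2.61) and 0 of 104 immune-marker nuclei, which allows up to 2.88%. In subscapular BAT the share was 9.84% of 955 adipocyte-marker nuclei (8.03 to 11.9) against 0 of 287 endothelial-marker nuclei, which allows up to 1.05%, and 1 of 34 immune-marker nuclei. Nuclei with pericyte and smooth muscle markers gave 6 of 71 in subscapular BAT (8.45%, 3.17 to 17.5), a share not distinct from that of the adipocyte-marker nuclei, and 2 of 69 in taPVAT. Median depth was 1576 and 2010 UMIs in the adipocyte-marker nuclei and 598 to 899 in the others named here, and its part in the gap was not tested. In cow fat 1 of 25 and in mesPVAT on Parse 1 of 386 adipocyte-marker nuclei had a UMI, and in RP fat 0 of 169, which allows up to 1.77%. Of the 4 UMIs of Slc2a4 in RP fat, 2 lay in 2 of the 160 nuclei with striated muscle markers. That share (1.25%, 0.152 to 4.44) overlapped those of the other classes of RP fat, and 2 UMIs do not set this class apart. The share in mesPVAT on Parse lies below the limit that 0 of 118 immune-marker nuclei allow (2.54%) and cannot be read as above background.

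**Figure D5:**
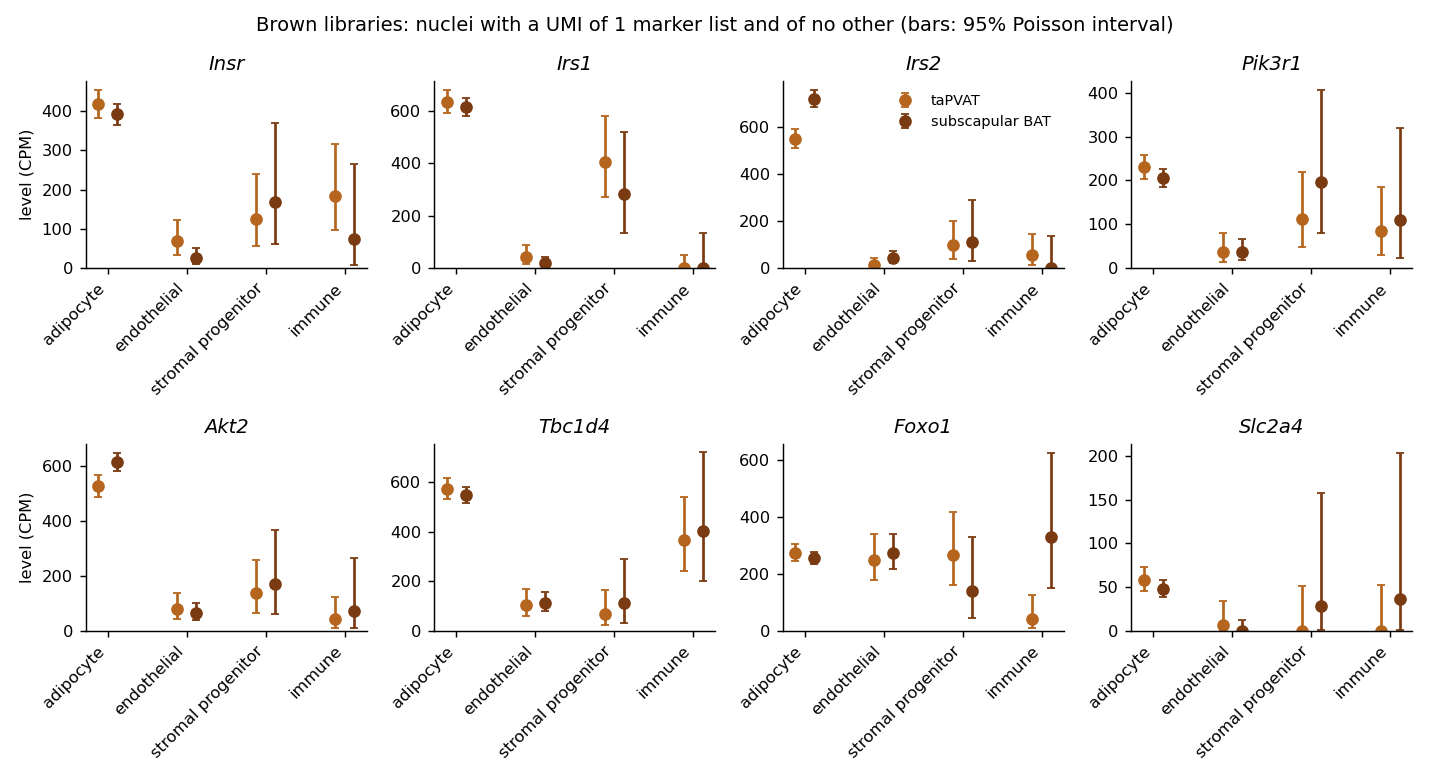
Level of each gene (CPM) in nuclei of taPVAT and subscapular BAT that carried a UMI of the adipocyte, endothelial, stromal progenitor or immune markers and of no other list, with 95% Poisson intervals. Irs2 falls from 720 and 550.2 CPM with adipocyte markers to 43.3 and 12.4 with endothelial markers, whereas Foxo1 lies at about the same level in both.

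A wider list of 60 genes of the pathway placed these values among their partners. Symbols of 58 were found in rat and 57 were tested. In positive against negative nuclei 10 rose, 2 fell and 45 did not pass edgeR's test (8.38% and 4.55% of all genes). Among those that rose were Pde3b, the phosphodiesterase by which insulin restrains lipolysis (log2 fold change 2.21), the hexokinase Hk2 (1.90), the GLUT4-vesicle aminopeptidase Lnpep (1.13), the adaptors Shc1 (1.20) and Sh2b2 (2.19), and Cblb (1.01), a relative of CBL. The risen genes also held the restraints Trib3 (2.37) and Grb14 (0.99), which are known to act on Akt and the receptor.

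Pde3b was higher in positive nuclei in 4 of 4 libraries. It was at 770 CPM in positive and 113.5 in negative nuclei of subscapular BAT and 772 and 131 in taPVAT. In mesPVAT on Parse the values were 277 and 117, and in RP fat 184 and 128. Pik3cd, the PI3-kinase catalytic subunit typical of leukocytes, was among those that fell (-1.45, edgeR adjusted p = 0.0173), and was lower in positive nuclei in 3 of 4 libraries. With the total alone 6 genes of the list rose and 9 fell (3.48% and 10.5% of all genes).

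With brown set against white fat over all nuclei, 47 of the 57 rose and 1 fell (34.1% and 41.8% of all genes), led by Sh2b2 at 241 against 26.8 CPM (4.43) and Pde3b at 663 against 158 (3.28). The gene that fell was Insrr, the insulin receptor-related receptor, at 1.16 against 10.1 CPM (-1.75, edgeR adjusted p = 0.00536). Few UMIs stand behind this fall, with 7 in taPVAT and 6 in subscapular BAT against 10 in mesPVAT on Parse and 12 in RP fat. With the total alone 24 rose and 6 fell (10.8% and 56.9% of all genes). The glucose transporters Slc2a1 and Slc2a12, next lowest of the list, were at 3.98 against 11.9 and 16.2 against 46.2 CPM and did not pass with TMM factors (-0.23 and -0.25). Both were below 0 where Slc2a4 had the largest value of the 8.

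By the correlation of log2(CPM + 1) over the 8 sums of positive and negative nuclei of the 4 rat Parse libraries, the genes most like Slc2a4 among 8096 with at least 50 CPM in a sum were Sun1 (r = 0.982), Tob1 (0.977), Fzd4 (0.972), Gpi (0.971) and Mocs2 (0.971). The sums share libraries, depth and the fat type, and 4 of them hold 4 UMIs of Slc2a4 or fewer, so these values are descriptions. Among the 7 other genes of the pathway r ran from 0.588 for Insr to 0.813 for Foxo1.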

How the data were processed

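Single-nucleus RNA sequencing of 5 rat and 1 cow fat libraries was analysed from the deposited UMI counts per gene and nucleus. The authors aligned Parse reads with split-pipe to GRCr8 for rat and to a cattle reference, and 10x reads with Cell Ranger to an older rat build; the deposited counts are not normalised and hold the barcodes kept by these pipelines, and the submitters' processing notes name FastQC and Scanpy. Coordinates and promoters are those of RefSeq on GRCr8. No authors' cell annotation was used and doublets were not removed. The study's limits on nuclei were applied only as an alternative, so all 19424 barcodes entered.

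Genes were matched by symbol, and CPM are UMIs per 1000000 UMIs of a library or class of nuclei. Nuclei were positive with at least 1 UMI of Plin1 or Adipoq. The other marker classes used Ptprb, Pecam1, Cdh5 and Flt1 (endothelial), Pdgfra, Dcn and Fbn1 (progenitor), Ptprc, Mrc1 and Csf1r (immune), Notch3, Pdgfrb, Rgs5 and Myh11 (pericyte and smooth muscle) and Ttn, Ryr1, Trdn, Ckm and Acta1 (striated muscle), with nuclei of more than 1 list left out; they are classes of nuclei by markers, not called cell types. UMIs were summed per library and class, and tested with edgeR 4.0.16 (glmQLFit, glmQLFTest, TMM, filterByExpr, Benjamini-Hochberg over all genes, threshold 0.05) in R 4.3.3. Plin1, Adipoq and the marker genes were left out of the tests of their classes. SE is the size of the log2 fold change over the square root of F. DESeq2 1.42.0, other scalings, filters, thinning (seed 20) and each library left out were alternatives. The fits were also run on simulated counts drawn from the same mean gene shares, with as many rises as falls. Those counts hold no shift in composition like that between brown and white fat, so they do not test the scaling. Intervals are 95% exact Poisson, exact binomial or conditional binomial for ratios of 2 counts, and a count of 0 allows 3. The intervals cover counting error only.

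The members, the wider list and the markers were chosen with earlier results of these data known. Named genes were the 8 members, the called genes of the wider list in positive against negative nuclei (at most 10 a direction), the 3 with the largest fold a direction in brown against white fat, and the 5 most like Slc2a4. Some genes that this rule names are not reported here. Only Insrr passed the test in the lower direction, and Slc2a12 and Slc2a1 complete the 3.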

Additional observations from a re-analysis of the deposited data

Results flagged for a closer look

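The ratio of positive to negative nuclei differed between brown and white rat Parse libraries for 6 of the 8 genes by the interaction test of edgeR with 2 libraries a side. The difference of the log2 ratio, brown minus white, was 2.14 for Irs1, 1.99 for Tbc1d4, 1.31 for Irs2, 1.24 for Akt2, 1.21 for Insr and 1.07 for Foxo1. The ratios of Foxo1 were 1.36 and 1.18 in the brown libraries, with intervals above 1, and 0.736 and 0.922 in the white libraries, with intervals that included 1. Depth moved with the same division, since negative nuclei had medians of 709 and 897 UMIs in the brown and 304 and 206 in the white libraries, and its part in the difference was not tested. Without scaling factors Irs1 and Tbc1d4 alone passed. Without RP fat Irs2 and Akt2 did not pass, and without mesPVAT or without taPVAT Foxo1 did not.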

How the results depend on the processing

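Of 511 log2 fold changes of the 8 genes recomputed under another setting, 438 kept their direction and side of the threshold, 49 lost and 18 gained a call, and 6 changed sign. In brown against white fat over all nuclei all 88 kept both. The changes of sign were for Foxo1 in positive against negative nuclei after thinning (-0.0441), for Foxo1 against endothelial (-0.33) and immune markers (-0.19) and Tbc1d4 against immune markers (-0.0275) without scaling factors, and for Foxo1 without taPVAT, where leaving out each library gave -0.0265 to 0.47 against endothelial and -0.19 to 1.20 against immune markers. None of these values passed the test.

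Positive against negative nuclei gave 2310 calls over all genes, which became 1505 with the 10x and cow libraries, 1325 with a UMI of both markers required, 4024 with at least 2 UMIs, 801 after thinning and 0 without the library block (1481 at an unadjusted p under 0.05 in edgeR, 1648 by DESeq2 with the block), and 71 to 3244 without each library in turn. The main fit tested 17860 genes, against 11810 with the 10x and cow libraries, 7182 after thinning and 13655 without the block. With both markers required 21065 were tested, and 19505 with at least 2 UMIs. Of the 8 genes, 6 became 1 with both markers required and 0 to 7 without each library. Without the block 0 passed, and 6 of 7 tested had an unadjusted p under 0.05 in edgeR. Brown against white gave 18251 calls, 11539 with DESeq2 and 5860 after thinning, and over positive nuclei 11534, 6864 and 703, with 3 in place of 8 of the genes after thinning and 7084 to 10819 calls without each library. The difference of the ratio gave 1567 calls, 814 to 1452 without each library, and without scaling factors 2 in place of 6 of the genes.

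The marker class fits tested 2662 genes, 32897 with no filter on genes, 1387 with nuclei of at least 500 UMIs and 1901 to 4173 without each library. Of the 8 genes they tested 7, 8, 5 and 6 or 7 in turn, so the counts of calls are not shares. Calls against endothelial markers went from 878 to 2565 with no filter, 511 at 500 UMIs and 300 to 1437 without each library. Without each library 3 to 6 of the genes were called in place of 6. Against immune markers 665 became 2849, 399 and 120 to 1200, with 7 of the genes without the filter and 2 to 5 without each library in place of 3. Against progenitor markers 564 became 1980 without the filter and 121 to 946 without each library. Of the genes, 5 of 7 tested became 8 of 8 without the filter and 3 of 7 without scaling factors. At 500 UMIs they became 3 of 5 tested, and without each library 3 to 5. The cause of these moves was not tested, except that filters and left-out libraries change the genes and sums tested. The labels carry no replicate numbers, so the library was the only block. With 1 library a depot and 4 to 6 UMIs of Slc2a4 in the white Parse libraries, depth limits that gene most.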
